A study of Mus musculus with 32 samples.

Results

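The Obox genes encode homeobox transcription factors of oocytes and early embryos, and 5 of them were followed here: Obox1, Obox2 and Obox5, which are stored in the egg as maternal transcripts, and Obox3 and Obox6, which the embryo transcribes itself. The members were taken by name, as the 5 Obox factors named as maternal or zygotic, and all 5 were found among the 55385 genes of the RNA tables, which hold 55 genes with an Obox symbol. No measured value was used to choose them, although earlier results of these data were known when they were chosen. All 5 reached a mean of at least 1 FPKM (fragments per kilobase of transcript, scaled to depth) in at least 1 group and passed the count filter of every comparison.

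Homeobox proteins bind short DNA words through a helix-turn-helix domain. OBOX proteins belong to the paired-type group, whose relatives Crx and Otx2 prefer words built on TAATCC, and Obox factors take part in zygotic genome activation (ZGA), when the embryo first transcribes its own genes. Before that step the embryo lives on maternal RNA, which is degraded over the 2-cell stage.

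The RNA series held 16 total RNA-seq libraries in 8 groups of 2, and 4 lists of open chromatin peaks (ATAC-seq) were read beside them, each made from 2 libraries of late 1-cell or early 2-cell embryos. All embryos were wild type, from in vitro fertilisation of B6D2F1/J eggs with B6D2F1/J sperm, both from mice of 6 to 8 weeks, and were cultured in KSOM medium. Zygotes and embryos of the early and late 2-cell stages received 10 µM A-485, an inhibitor of the catalytic activity of the histone acetyltransferases CBP and p300, from 4 to 20 hours post fertilisation (hpi), or DMSO, the solvent. A second set of late 2-cell embryos received 50 nM trichostatin A (TSA), an inhibitor of histone deacetylases, from 8 to 28 hpi, with DMSO controls of its own. The late 2-cell A-485 embryos had therefore been moved out of the drug before collection, and the drugs also differ in dose and window. Zygotes and late 1-cell embryos were collected before the 2-cell stage, so they may have had only part of the A-485 window. Both drugs act on many genes and on the whole embryo, the number of embryos in a library was not given, and nothing in the labels says that replicates came from separate cultures or animals, so that each p-value measures the spread between these libraries only. A library is bulk RNA, in which fewer cells of a type and less RNA per cell cannot be told apart.

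Libraries held 13206163 to 32585987 expected counts, with 19007 to 26869 genes above 0. Summed over 7 oocyte and zygote markers, the level was 2025 to 2250 FPKM in DMSO zygotes and 710 to 760 FPKM in the late 2-cell DMSO libraries of the A-485 experiment, and that of 6 early 2-cell markers rose from 10.0 FPKM in both DMSO zygote libraries to 377 to 439 FPKM in early 2-cell DMSO libraries, as the stage labels say. The summed level of markers reached at most 6.64 FPKM for cumulus cells, 6.05 FPKM for fibroblasts and 18.9 FPKM for sperm in any group.

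The members lie together. Of the 55 Obox genes, 53 were on chromosome 7 between positions 14331436 and 15839678 (GRCm38, GENCODE M21), and 7 of all 55 are annotated as protein-coding. Obox2 (ENSMUSG00000074369) occupies positions 15388721 to 15398545 on the plus strand, inside the annotated span of Obox1 (ENSMUSG00000054310, positions 15388948 to 15556866, plus strand) except for its first bases. Obox3 (ENSMUSG00000066772) runs on the minus strand from 15639902 to 15479825 and so also overlaps the span of Obox1. Obox5 (ENSMUSG00000074366, 15750131 to 15759800, plus strand) and Obox6 (ENSMUSG00000041583, 15833241 to 15839678, minus strand) stand apart from these 3.

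The sequences at the transcription starts are shown first because maternal and zygotic members share them. The RefSeq start regions (GRCm38.p6) of Obox1, Obox3 and Obox5, and of their relative Obox7, hold an identical run of 42 bases, of which the first 38 are in capitals. Only 4 of 32851 start regions in the genome hold that run. No entry for Obox6 was in the table.
Obox1, chr7:15547171-15547270, plus strand: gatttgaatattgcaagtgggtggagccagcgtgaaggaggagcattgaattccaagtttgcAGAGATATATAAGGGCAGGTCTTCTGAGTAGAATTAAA
Obox3, chr7:15639775-15639874, minus strand: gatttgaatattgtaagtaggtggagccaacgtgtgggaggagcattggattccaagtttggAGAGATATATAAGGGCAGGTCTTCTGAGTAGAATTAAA
Obox5, chr7:15750272-15750371, plus strand: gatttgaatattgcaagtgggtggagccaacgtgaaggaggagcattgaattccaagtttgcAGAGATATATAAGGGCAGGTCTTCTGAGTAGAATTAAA
Obox7, chr7:14659636-14659735, plus strand: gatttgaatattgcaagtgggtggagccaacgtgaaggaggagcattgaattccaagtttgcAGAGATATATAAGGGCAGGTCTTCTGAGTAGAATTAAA

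Over the 62 bases before the capitals, Obox5 and Obox7 were 100% identical, Obox1 and Obox5 98.4%, Obox3 and Obox5 90.3% and Obox1 and Obox3 88.7%. The RefSeq start lies inside the capitals for all 4 genes, 24 bases after their beginning for Obox1, 35 for Obox3, 36 for Obox5 and 10 for Obox7. The 42-base run occurred 19 times in the genome, always on chromosome 7, and 5 of these copies lay within 1000 bases of the starts of Obox1, Obox2, Obox3, Obox5 and Obox7. Such near-identical copies also limit the counting of reads. Of the 50-base words in Obox1 transcripts, 56.4% also occur in Obox2 transcripts, and of those in Obox2 transcripts 62.7% occur in Obox1, so that the division of reads between these genes rests on the counting model. The shared part was 19.6% for Obox3 (mostly with Obox3-ps pseudogenes), 18.1% for Obox5 (mostly with Obox7) and 5.02% for Obox6 (with Obox6-ps1). The strand setting of the counting was not given in the sources used here, so reads of genes overlapping on opposite strands, such as Obox1 and Obox3, could also have been shared.

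**Figure D1:**
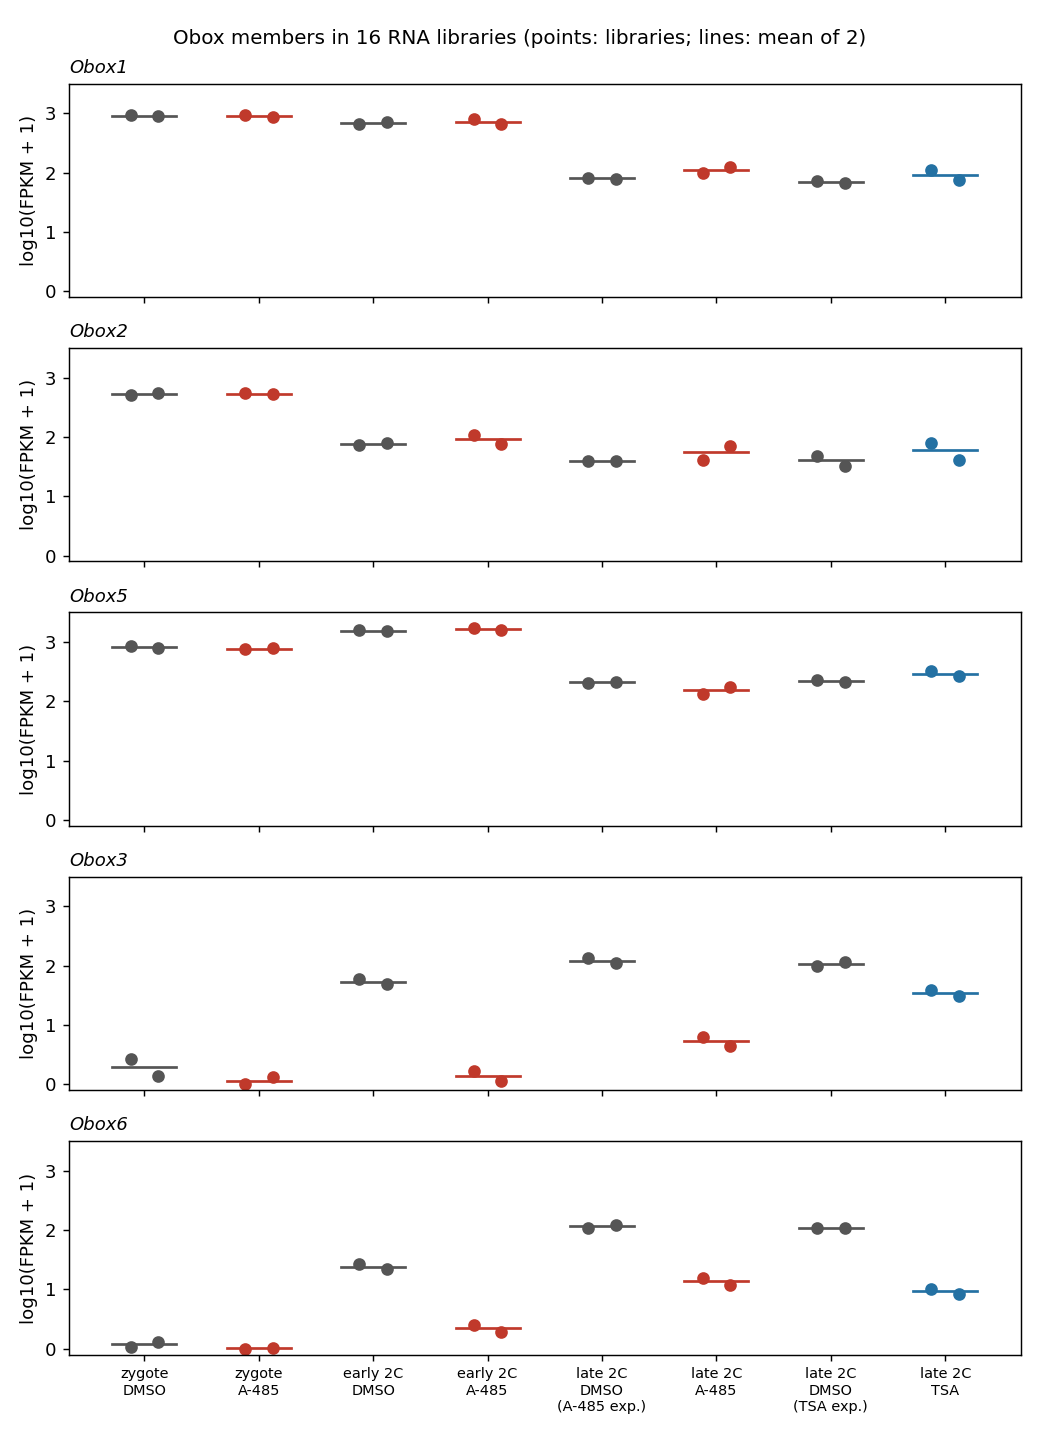
Level of each member in the 16 RNA libraries, as log10(FPKM + 1) on the vertical axis, in 5 panels with the 8 groups on the horizontal axis. Each point is a library and each line the mean of 2. Obox1, Obox2 and Obox5 start above 500 FPKM in zygotes, while Obox3 and Obox6 stay at or below 1.63 FPKM there and pass 98 FPKM in late 2-cell DMSO embryos.

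Among the maternal members, Obox1 was at 924 and 894 FPKM in DMSO zygotes and 949.6 and 863 FPKM in A-485 zygotes. It was at 666 and 704 FPKM in early 2-cell DMSO embryos and at 795 and 647 FPKM after A-485. In late 2-cell embryos it was at 81.1 and 76.5 FPKM (DMSO of the A-485 experiment), 97.0 and 124 FPKM (A-485), 72.3 and 66.6 FPKM (DMSO of the TSA experiment) and 108 and 74.6 FPKM (TSA). By mean FPKM Obox1 ranked 79th of all genes in DMSO zygotes and 1368th in late 2-cell DMSO embryos of the A-485 experiment, where its level was 8.67% of that in zygotes. The order of groups followed stage: the zygote groups overlapped each other, as did the early 2-cell groups, and no late 2-cell library reached an earlier group. Among the late groups, A-485 overlapped TSA and TSA overlapped the DMSO libraries of the A-485 experiment.

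Obox2 was lower than Obox1 in every zygote library and fell earlier. It was at 506 and 557 FPKM in DMSO zygotes and at 541 and 535 FPKM in A-485 zygotes. It was already at 72.5 and 77.8 FPKM in early 2-cell DMSO embryos, and at 107 and 76.3 FPKM after A-485. Its late 2-cell levels were 37.8 and 37.9 FPKM (DMSO of the A-485 experiment), 39.4 and 69.9 FPKM (A-485), 47.1 and 31.3 FPKM (DMSO of the TSA experiment) and 78.0 and 40.4 FPKM (TSA). From the early 2-cell A-485 group downwards, each group overlapped the next in the order of levels, although the early 2-cell DMSO libraries lay above all late 2-cell DMSO libraries. The zygote libraries lay above those of every later group.

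Obox5 took the opposite course between the zygote and the early 2-cell stage. It was at 854 and 785 FPKM in DMSO zygotes and at 758 and 786 FPKM in A-485 zygotes. In early 2-cell embryos it stood at 1595 and 1535 FPKM with DMSO and at 1699 and 1591 FPKM after A-485, where it ranked 73rd and 72nd of all genes. In late 2-cell embryos it was at 207 and 210.4 FPKM (DMSO of the A-485 experiment), 130.3 and 177 FPKM (A-485), 229 and 209 FPKM (DMSO of the TSA experiment) and 324 and 262 FPKM (TSA). The early 2-cell groups overlapped each other, as did the zygote groups and the late 2-cell DMSO groups, while the late A-485 libraries lay below and the TSA libraries above all late DMSO libraries.

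The zygotic members were close to 0 in zygotes. Obox3 was at 1.63 and 0.37 FPKM in DMSO zygotes (24 and 6 counts) and at 0 and 0.32 FPKM in A-485 zygotes (0 and 5 counts, where a count of 0 allows up to 3). It was at 58.5 and 47.4 FPKM in early 2-cell DMSO embryos but at 0.68 and 0.14 FPKM after A-485 (5 and 3 counts). In late 2-cell embryos Obox3 was at 133 and 110.1 FPKM (DMSO of the A-485 experiment), 5.36 and 3.51 FPKM (A-485), 99.0 and 115 FPKM (DMSO of the TSA experiment) and 38.0 and 30.5 FPKM (TSA). The late DMSO groups overlapped, and so did the zygote groups with early 2-cell A-485 embryos at the bottom, whereas each of the other steps in the order separated the groups.

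Obox6 was at 0.09 and 0.30 FPKM in DMSO zygotes (3 and 10 counts) and at 0 and 0.03 FPKM in A-485 zygotes (0 and 1 counts). It was at 25.5 and 21.2 FPKM in early 2-cell DMSO embryos and at 1.56 and 0.94 FPKM after A-485. Its late 2-cell levels were 109 and 124 FPKM (DMSO of the A-485 experiment), 14.3 and 11.1 FPKM (A-485), 106.8 and 106.6 FPKM (DMSO of the TSA experiment) and 9.15 and 7.45 FPKM (TSA). No neighbouring groups overlapped for Obox6, including the 2 late DMSO groups, although their test missed the threshold.

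The family as a whole changed its makeup with stage. On the FPKM scale the 5 members summed to 2285 and 2237 FPKM in DMSO zygotes, where Obox1 held 40.4% and 39.9% of the sum, Obox5 37.4% and 35.1% and Obox2 22.1% and 24.9%. In early 2-cell DMSO embryos Obox5 alone held 66.0% and 64.3% of the sum. In late 2-cell DMSO embryos of both experiments the sum lay between 529 and 568 FPKM, with Obox3 at 17.9 to 23.4% and Obox6 at 19.2 to 22.1%.

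The first question was how each member changed with stage without inhibitor, tested with edgeR's quasi-likelihood test and Benjamini-Hochberg adjustment over all genes, a gene being called at adjusted p under 0.05, a change of at least 1 on the log2 scale and a mean of at least 1 FPKM in a group. Between DMSO zygotes and early 2-cell embryos, Obox3 (log2 change 6.61 ± 0.33 SE, adjusted p = 3.21e-09), Obox6 (6.99 ± 0.37, 5.10e-09) and Obox5 (1.05 ± 0.06, 1.54e-08) rose, and Obox2 fell by 2.70 ± 0.08 (4.05e-11). Obox1 had a change of -0.32 ± 0.07 (0.00125), under the size asked for. Thus 3 of 5 members rose against 11.2% of 20106 genes tested, and 1 of 5 fell against 14.9%. For the zygotic members the reads in zygotes were few, and the ratio of depth-scaled counts was 92.3 for Obox3 (2030 against 30 counts, 95% exact interval 64.5 to 137, counting error only) and 122 for Obox6 (1162 against 13 counts, 71.0 to 229.7).

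The rise of Obox5 depended on the scale, and its call was lost under total counts (0.96). When libraries were scaled to the mitochondrially encoded genes instead, the median of all genes moved from 0.08 to -1.18 and Obox5 stood at -0.22 with an adjusted p of 0.102, that is, above most genes but not above its level in zygotes, while Obox1 was called as falling by 1.59. Obox2 was called as falling on that scale too (-3.97). When Obox1, Obox2, Obox5 and Obox7 were summed into 1 feature because they share sequence, the sum changed by 0.16. In that sum the gain of Obox5 met lower levels of Obox1, Obox2 and Obox7. Obox1 and Obox2, which share most of their words, also fell as a pair on the FPKM scale, from a summed mean of 1440.3 FPKM in DMSO zygotes to 760.5 FPKM in early 2-cell DMSO embryos. How far the division of reads between the copies bears on the fall of Obox2 was not tested.

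From early to late 2-cell DMSO embryos all 5 members changed. Obox3 rose by 1.30 ± 0.14 on the log2 scale (edgeR, adjusted p = 1.37e-05) and Obox6 by 2.30 ± 0.15 (2.91e-07), 2 of 5 members against 15.9% of 20326 genes tested. Obox1 fell by 3.18 ± 0.11 (1.26e-08), Obox5 by 2.91 ± 0.09 (5.90e-09) and Obox2 by 1.08 ± 0.14 (7.27e-05), 3 of 5 against 8.92%. The early 2-cell DMSO libraries enter both stage comparisons, which are therefore not independent of each other. With the DMSO libraries of the TSA experiment as the late group, the change of Obox2 was -0.97 and no longer called.

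The second question was what A-485 did. In zygotes edgeR called no member, against 0.00548% of 18258 genes tested called as rising and 0.0657% as falling, with 447 and 626 genes at an unadjusted p under 0.05. The log2 differences of the maternal members were -0.00 ± 0.06 for Obox1 (adjusted p = 0.997), -0.01 ± 0.06 for Obox2 (0.997) and -0.07 ± 0.05 for Obox5 (0.971). Obox3 (30 counts in DMSO, 5 in A-485) and Obox6 (13 and 1 counts) had few reads in zygotes, with adjusted p of 0.884 and 0.889. In depth-scaled counts, DMSO zygotes had 6.50 times the Obox3 of A-485 zygotes (95% exact interval 2.50 to 21.5) and 14.1 times the Obox6 (2.12 to 599), intervals above 1 that cover counting error only and leave out the spread between libraries.

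In early 2-cell embryos A-485 separated the family by origin. Obox3 (log2 difference -8.02 ± 0.29, edgeR, adjusted p = 2.46e-09) and Obox6 (-4.20 ± 0.28, 5.70e-07) fell, which is 2 of 5 members against 7.90% of 20872 genes tested, and none rose against 0.402%. In depth-scaled counts, DMSO embryos had 270.5 times the Obox3 of A-485 embryos (2030 against 8 counts, 95% exact interval 137 to 627) and 18.8 times the Obox6 (1162 against 66 counts, 14.6 to 24.4). The maternal members had differences of 0.09 ± 0.09 (Obox1, adjusted p = 0.631), 0.18 ± 0.14 (Obox2, 0.464) and 0.11 ± 0.06 (Obox5, 0.282).

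The course of the maternal members from zygote to early 2-cell was also seen with the inhibitor. Within A-485 embryos Obox2 fell by 2.42 ± 0.12 (edgeR, adjusted p = 3.34e-09), 1 of 5 members against 15.6% of 19858 genes. Obox5 rose by 1.32 ± 0.06 (1.16e-09) and Obox6 by 6.34 ± 1.21 (7.63e-04), 2 of 5 against 6.85%, the call of Obox6 being lost without early 2-cell A-485 replicate 1 (5.95), where its mean was 0.94 FPKM and so under the 1 FPKM asked for. Obox6 had 1 count in A-485 zygotes and 66 in early 2-cell A-485 embryos, a depth-scaled ratio of 91.5 with an interval of 15.9 to 3668, and Obox3 had 5 and 8 counts, a ratio of 2.22 (0.640 to 8.62). The limits given for Obox2 and Obox5 in DMSO embryos hold here too: the sum of Obox1, Obox2, Obox5 and Obox7 changed by 0.39, and on the mitochondrial scale Obox5 stood at -0.23. The difference between the A-485 effects at early 2-cell and in zygotes passed the threshold for Obox3 alone (-5.36 ± 1.33, adjusted p = 0.0172, 1 of 5 against 3.69% of genes called in this direction). That call was lost without replicate 2 of the A-485 zygotes (-1.32) or replicate 2 of the early 2-cell A-485 embryos (-4.97). Zygotes held few Obox3 counts (30 in DMSO and 5 in A-485), so a fall as large as at early 2-cell could not have been seen there. Their exposure may also have been shorter.

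**Figure D2:**
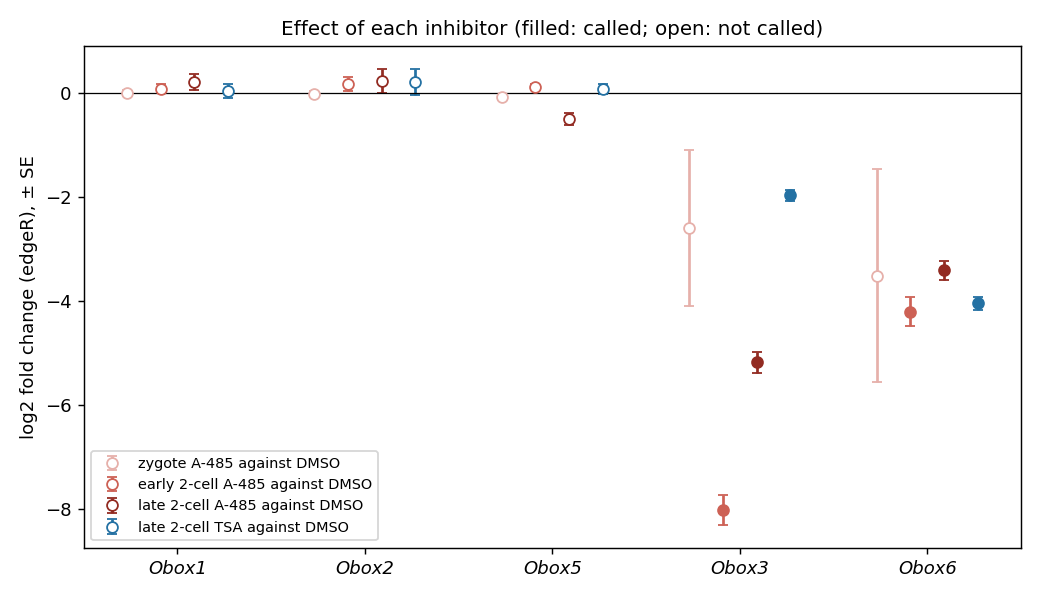
Log2 difference between inhibitor and DMSO with its standard error on the vertical axis, for the 5 members along the horizontal axis in 4 comparisons, which are A-485 at each of 3 stages and TSA at the late 2-cell stage. Filled points passed the test. Obox3 and Obox6 lie at -1.96 or lower in the 3 comparisons of 2-cell embryos, and Obox1, Obox2 and Obox5 between -0.49 and 0.23 in all 4.

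In late 2-cell embryos, after A-485 had been removed, Obox3 and Obox6 were still lower than in DMSO embryos. Obox3 fell by 5.18 ± 0.21 (edgeR, adjusted p = 8.94e-09) and Obox6 by 3.40 ± 0.18 (4.03e-08), 2 of 5 members against 16.8% of 22822 genes, and none rose against 10.5%. On the FPKM scale Obox3 was at 3.65% and Obox6 at 10.9% of the DMSO mean. FPKM is relative to the sum of all genes and the test to TMM scaling, and in the late groups these differ, so that Obox1 stood at 140.3% of DMSO by FPKM. Obox5 had a smaller difference of -0.49 ± 0.12 (adjusted p = 0.0060), under the size asked for, which became -1.13 and a call on the mitochondrial scale, where the median of all genes moved from 0.28 to -0.35. Obox1 (0.21 ± 0.16, 0.311) and Obox2 (0.23 ± 0.23, 0.461) did not pass the test. By FPKM, the same libraries held more of the oocyte and zygote markers, which summed to 1358 to 1381 FPKM against 710 to 760 FPKM in DMSO embryos. They held less of the 6 early 2-cell markers, at 59.8 to 61.9 FPKM against 242 to 255 FPKM. By the test, 1 of the 7 oocyte and zygote markers rose (Bmp15), near the 10.5% of all genes, with a median of 0.46 against 0.28 over all genes. All 6 early 2-cell markers fell, against 16.8% (median -2.28). The part of these differences in the result was not tested.

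The zygotic members gained some level between the early and late A-485 groups. Obox3 rose by 4.06 ± 0.84 and Obox6 by 3.02 ± 0.39, 2 of 5 members called by edgeR against 12.8% of 22854 genes, and Obox1 (-3.14), Obox5 (-3.59) and Obox2 (-1.10) fell, 3 of 5 against 7.15%. The call of Obox2 was lost under total counts (-0.82), without early 2-cell A-485 replicate 1 (-0.84) and without late 2-cell A-485 replicate 1 (-0.77). In depth-scaled counts the late A-485 embryos had 21.0 times the Obox3 of the early ones (102 against 8 counts, interval 10.2 to 49.9) and 9.97 times the Obox6 (400 against 66 counts, 7.67 to 13.1). By FPKM, the late group with A-485 held 54.5% of the Obox6 level of the DMSO group a stage earlier, and 8.38% of the Obox3 level. The effect of A-485 was smaller in late than in early 2-cell embryos by 2.91 ± 0.41 for Obox3 (adjusted p = 5.74e-06), the single member called in this test of the difference, against 7.60% of 25141 genes. None of the 5 was called in the other direction, against 7.38% of genes. Obox6 differed by 0.88 ± 0.29 (adjusted p = 0.0353) and Obox5 by -0.52 ± 0.12 (0.00202), both under the size asked for.

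The third question was what TSA did in late 2-cell embryos. Obox6 fell by 4.04 ± 0.12 (edgeR, adjusted p = 4.64e-09) and Obox3 by 1.96 ± 0.11 (1.54e-07), 2 of 5 members against 13.9% of 23429 genes, and none rose against 13.8%. By FPKM, Obox6 was at 7.78% and Obox3 at 31.9% of the DMSO mean. Obox1 (0.04 ± 0.14, adjusted p = 0.852), Obox2 (0.22 ± 0.25, 0.542) and Obox5 (0.07 ± 0.10, 0.586) did not pass. Between the late DMSO libraries of the A-485 and TSA experiments edgeR called no member, with adjusted p from 0.762 to 0.906, against 0.136% of 20647 genes rising and 1.19% falling, and 1191 and 1586 genes at an unadjusted p under 0.05.

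The drug effects were then compared with each other. The A-485 effect minus the TSA effect was -3.33 ± 0.22 for Obox3 (edgeR, adjusted p = 7.43e-09), 1 of 5 members called against 10.8% of 26554 genes, with Obox3 lower after A-485. For Obox6 it was 0.53 ± 0.21 (adjusted p = 0.0971), which did not pass. Obox5 had -0.67 ± 0.16 (0.00492), under the size asked for. By summed FPKM, the oocyte and zygote markers differed less under TSA (702 to 729 FPKM against 542 to 562 FPKM in its controls) and the early 2-cell markers were higher (356 to 431 FPKM against 153 to 182 FPKM). By the test under TSA, no oocyte and zygote marker rose and 1 of 7 fell (Zp3), near the 13.9% of all genes. Their median was -0.16, against 0.13 over all genes. Of the early 2-cell markers 2 of 6 rose, against 13.8% of all genes (median 0.79). The part of these in the Obox3 difference was not tested, and no test compared Obox3 with Obox6.

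**Figure D3:**
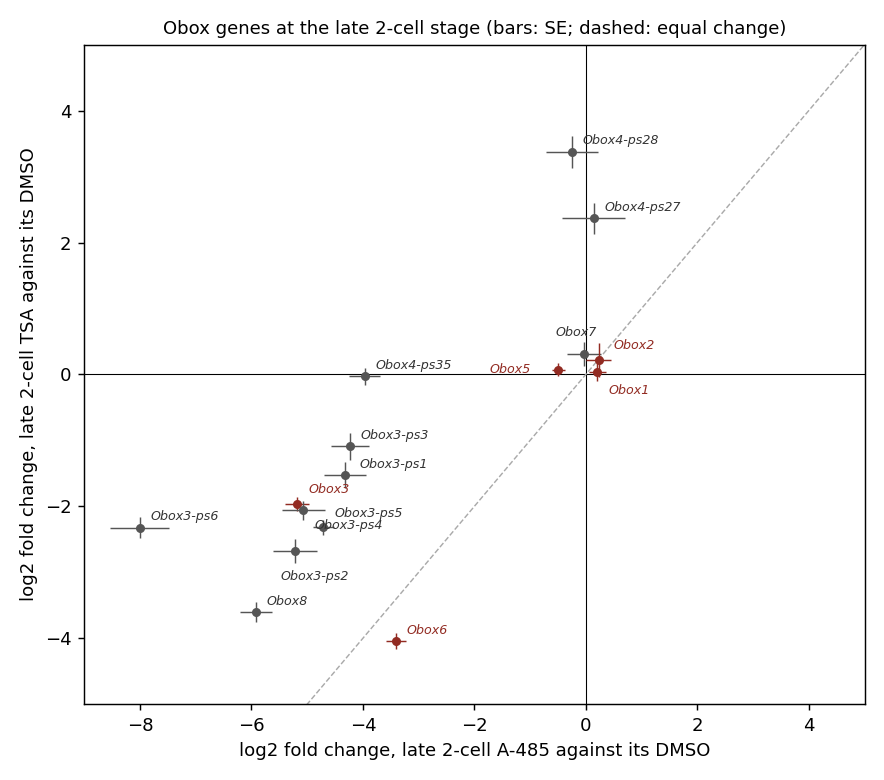
Each point is an Obox gene, with its log2 difference after A-485 on the horizontal axis and after TSA on the vertical axis, both in late 2-cell embryos against their own DMSO libraries, with standard errors. The dashed line marks equal changes. Obox6 lies just below the line at -3.40 and -4.04, Obox3 above it at -5.18 and -1.96, and Obox4-ps35 at -3.97 and -0.03.

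Relatives of the members were read by the same test. Of the other 50 Obox genes, 17 fell and none rose among 25 tested in early 2-cell embryos after A-485 (median -5.95, against 0.00 over all genes, of which 7.90% fell), and 17 of 25 rose from zygote to early 2-cell in DMSO, against 11.2% of all genes. Most are pseudogenes whose near-identical sequence makes their counts uncertain, and the 6 Obox3-ps genes share words with Obox3. Copies that share reads can also share a call, so here and below the numbers of relatives called may overstate the number of separate changes. The count filter bears on both comparisons above, which include the early 2-cell DMSO libraries. Without these libraries fewer relatives passed it, 12 between the zygote groups and 9 between A-485 zygotes and A-485 early 2-cell embryos. Relatives that passed through early 2-cell DMSO reads alone could hardly rise after A-485 or fall after the zygote. The filter thus set these falls, rises and the median in part, and the shares of all genes are no like measure. Obox8, a protein-coding relative with no 50-base word in common with other Obox genes, moved with Obox3 and Obox6: it was at 0.03 and 0.85 FPKM in DMSO zygotes, 6.23 and 7.37 FPKM in early 2-cell DMSO embryos, and 66.6 and 95.7 FPKM in late 2-cell DMSO embryos of the A-485 experiment. It fell by 5.92 ± 0.29 after A-485 (adjusted p = 2.19e-08) and by 3.60 ± 0.15 after TSA (2.40e-08) in late 2-cell embryos, and the effects differed by -2.43 ± 0.31 (1.76e-05). Obox7, whose start sequence is that of Obox5, was at 104 and 106.7 FPKM in DMSO zygotes and 13.0 and 13.4 FPKM in late 2-cell DMSO embryos of the A-485 experiment, and its differences of 0.14 ± 0.13, -0.03 ± 0.31 and 0.30 ± 0.18 after A-485 (early and late) and TSA did not pass.

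TSA parted the relatives in late 2-cell embryos. At that stage 11 of the 25 tested rose, all Obox4-ps genes, and 7 fell, the 6 Obox3-ps genes and Obox8, against 13.8% of all genes rising and 13.9% falling. After A-485 none of 22 rose, against 10.5%, and 8 fell, against 16.8%. Obox4-ps28 was at 36.3 and 37.0 FPKM in early 2-cell DMSO embryos and had dropped to 3.84 and 2.32 FPKM in the late DMSO libraries of the TSA experiment, but stood at 47.0 and 35.3 FPKM with TSA (3.38 ± 0.24, edgeR, adjusted p = 1.09e-06). Obox4-ps27 was at 35.6 and 36.9 FPKM with TSA and 7.08 and 3.91 FPKM in its controls (2.36 ± 0.24, 1.59e-05). Obox4-ps35, a lincRNA at 60.5 and 64.8 FPKM in those controls, was at 76.1 and 80.8 FPKM with TSA (-0.03 ± 0.13, adjusted p = 0.879) and at 5.58 and 5.15 FPKM after A-485 (-3.97 ± 0.28, 3.99e-07), and the drug effects differed by -4.05 ± 0.28 (9.84e-09).

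Other paired-type homeobox genes of oocyte and embryo were followed as a list of 14. Crxos, which encodes a homeodomain protein of early embryos from the strand opposite Crx, was at 0.05 and 0 FPKM in DMSO zygotes and 69.4 and 81.3 FPKM in early 2-cell DMSO embryos. It was at 0.27 and 0.13 FPKM in early 2-cell A-485 embryos, a fall by 8.34 ± 0.34 (edgeR, adjusted p = 5.61e-09). At the late 2-cell stage it fell by 3.78 ± 0.32 after A-485 (1.64e-06) and by 2.11 ± 0.12 after TSA (1.55e-07), a course close to that of Obox3. In the list as a whole, 3 of 14 tested fell (Otx1, Duxbl3, Crxos) and none rose in early 2-cell embryos after A-485, against 7.90% of all genes falling and 0.402% rising. In late 2-cell embryos after A-485, 4 of 13 tested rose against 10.5% of all genes, and 2 fell, a share near the 16.8% of all genes. Duxbl3 was among those rising and Duxbl2 among those falling. After TSA 2 of 14 rose, near the 13.8% of all genes, and 4 fell against 13.9%. Duxf3, the Dux factor that activates 2-cell genes, was the single gene of 9 tested in the list that was called in zygotes after A-485, against 0.0657% of all genes falling (-4.67 ± 0.29, adjusted p = 7.29e-06).

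A list of 16 other regulators linked to ZGA gave the setting. None was called in zygotes after A-485 by edgeR, where only 0.00548% of all genes were called as rising and 0.0657% as falling. In early 2-cell embryos 6 of 16 tested fell, against 7.90% of all genes, and none rose, among them Dppa4, a chromatin factor linked to 2-cell genes (-4.12), Kdm5b, a histone H3K4 demethylase (-3.93), Rarg, a retinoic acid receptor (-2.49), and Klf5, a zinc finger factor (-1.75). At the late 2-cell stage 13 of 16 fell after A-485, against 16.8% of all genes, and 10 of 16 after TSA, against 13.9%. Gabpa, an ETS-type factor, had differences of -3.13 and -2.63.

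Genes outside the family with the most similar pattern were looked for by Pearson's r of log2(FPKM + 1) over the 16 libraries, among 12141 genes with a mean of at least 5 FPKM in a group. For Obox1 these were Trim75 (r = 0.994), Nlrp4f (0.994) and 4933427D06Rik (0.992), for Obox2 Rdx, Cpeb1 and Elp3 (0.991 to 0.992) and for Obox5 Rfpl4, E330034G19Rik and Anxa7 (0.983 to 0.985). For Obox3 they were Gm5435, Gm7102 and Gm18856 (0.991 to 0.993) and for Obox6 Spry2 (0.997), an inhibitor of receptor tyrosine kinase signalling, Zfp599 (0.994) and Dr1 (0.992). Among members, r was 0.931 between Obox3 and Obox6, 0.901 between Obox1 and Obox5, 0.803 between Obox1 and Obox2 and 0.528 between Obox2 and Obox5. These values describe libraries that share stages and treatments, and carry no test.

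Open chromatin at the members was read from the ATAC-seq peak lists, with 1 list per group and so no replicate error. No peak lay within 1000 bases of a start of any of the 5 members in any of the 4 lists. Of 22028 protein-coding genes, 26.1% (DMSO) and 24.6% (A-485) had one in late 1-cell embryos, and 31.6% and 40.8% in early 2-cell embryos. How reads that map to several places were treated was not given in the sources used here, and the start sequences above occur in several copies. Within 2500 bases, Obox5 and Obox6 had a peak in early 2-cell DMSO embryos alone, where 36.7% of protein-coding genes had one, and neither in the A-485 list, where 42.4% did. The family region with 5 kb on either side held 12 peak intervals in early 2-cell DMSO embryos and 2 after A-485, of 27693 and 13712 in the genome, and none in either late 1-cell list.

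**Figure D4:**
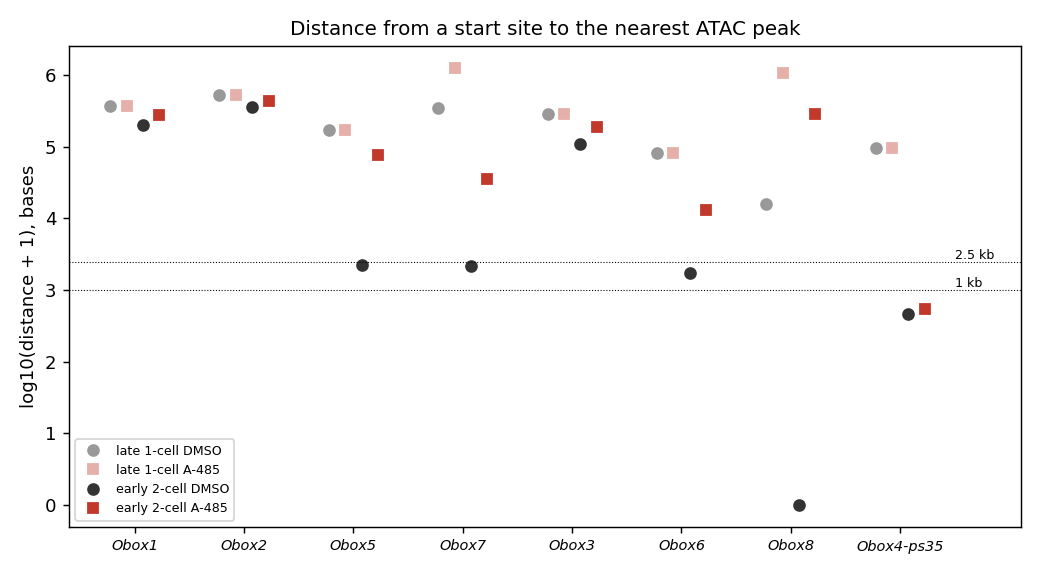
Distance from the start of 8 Obox genes to the nearest ATAC-seq peak, as log10(bases + 1), in each of 4 peak lists. Obox5 (2245 bases), Obox6 (1720 bases), Obox7 (2184 bases) and Obox8 (0 bases) have a near peak in early 2-cell DMSO embryos alone, and Obox4-ps35 has one at 455 bases there and at 541 bases after A-485.

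The peak near Obox6, chr7:15841398-15841955, lay 1.72 kb upstream of its start with an enrichment of 13.7-fold over local background, and the peak near Obox5, chr7:15747434-15747886, lay 2.25 kb upstream with 8.67-fold. The peak near Obox7, chr7:14656490-14657312, lay 2.18 kb upstream with 10.99-fold. None of these overlapped an annotated gene. The peak at Obox8, chr7:14333435-14334141, covered its start with 9.23-fold. After A-485 the nearest peak was 13.0 kb away from Obox6, 76.0 kb from Obox5, 35.9 kb from Obox7 and 289 kb from Obox8. Such absence was common: over the genome, 31453 of 42382 early 2-cell DMSO summits overlapped no peak of the A-485 list. For Obox1, Obox2 and Obox3 the nearest peak in early 2-cell DMSO embryos was 199, 357 and 108 kb away. An absent peak does not show that their starts were closed, because the start sequences occur in several copies. The RNA of Obox1 and Obox2 is stored from the egg, so its level need not follow chromatin at this stage. The 120 bases around the 4 summits are printed on the strand of the gene because these are the nearest open sites to family genes whose peak was absent from the A-485 list. Capitals mark the words searched on both strands, which were TAATCC, the homeodomain word named above, then TATAAA, a word of core promoters, then GGGCGG, the Sp1-type word, and last AAGGTCA, the word of orphan nuclear receptors such as Nr5a2.
Obox6, chr7:15841526-15841645, minus strand: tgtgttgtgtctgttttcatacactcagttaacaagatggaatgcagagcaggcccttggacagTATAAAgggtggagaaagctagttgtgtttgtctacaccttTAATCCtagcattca
Obox5, chr7:15747487-15747606, plus strand: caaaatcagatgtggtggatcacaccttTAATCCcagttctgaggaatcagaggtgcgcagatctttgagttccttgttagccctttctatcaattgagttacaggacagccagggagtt
Obox7, chr7:14656800-14656919, plus strand: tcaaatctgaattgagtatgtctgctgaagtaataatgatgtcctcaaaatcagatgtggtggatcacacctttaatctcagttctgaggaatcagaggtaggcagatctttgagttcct
Obox8, chr7:14333696-14333815, minus strand: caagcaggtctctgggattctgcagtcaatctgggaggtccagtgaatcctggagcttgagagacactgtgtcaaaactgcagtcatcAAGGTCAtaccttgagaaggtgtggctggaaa

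The word TAATCC, the type that homeodomains of the Otx and Crx kind bind, stood in the Obox6 and Obox5 summit sequences and not in those of Obox7 and Obox8, and the Obox7 sequence held none of the words searched. The Obox5 and Obox7 sequences hold a near-identical stretch around the word, and within the word only its last base differs in Obox7. TAATCC is also part of a common mouse repeat, the B1 element, and a match is not a bound site. Over the genome, 36.4% of 42382 summits of early 2-cell DMSO embryos held it within 120 bases, against 3.47% of 23473 summits after A-485, 5.80% and 3.11% of the late 1-cell DMSO and A-485 summits, and 4.84% of all windows of 120 bases along chromosome 7. Among the early 2-cell DMSO summits the share was 46.1% above the median enrichment and 26.7% below it. Summits that overlapped a peak of the A-485 list held the word in 6.34% and the others in 46.9%. The word GGGCGG ran the other way, in 14.5% of early 2-cell DMSO summits and 35.0% of those after A-485. The early 2-cell lists also differ in makeup. Of protein-coding genes, 31.6% had a DMSO peak and 40.8% an A-485 peak within 1000 bases of a start, although the A-485 list was shorter. The part of this in the shares of both words was not tested. In the 300-base start regions, TAATCC stood in 7.06% of 32851, with Obox3 as the only holder among 5 Obox entries, TATAAA in 13.6% (Obox3), AAGGTCA in 4.72% (Obox1, Obox2 and Obox7) and GGGCGG in 35.7% (none).

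**Figure D5:**
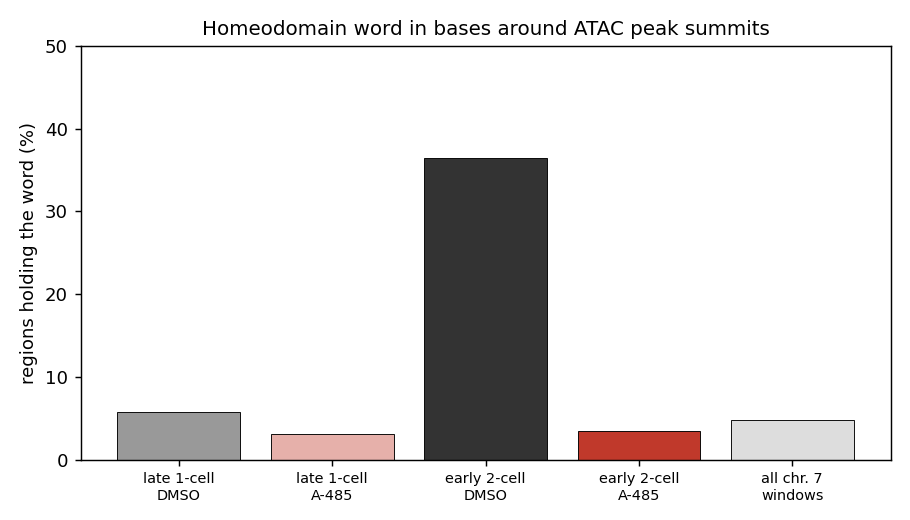
Share of ATAC-seq summit regions of 120 bases that hold the word TAATCC on either strand, in percent, for the 4 peak lists and for all windows of chromosome 7. Early 2-cell DMSO embryos stand at 36.4% and the other bars between 3.11% and 5.80%.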

How the data were processed

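Total RNA-seq libraries were made by the authors with a stranded random-primed kit that depletes ribosomal RNA, trimmed with Trimmomatic 0.39, mapped to GRCm38 with STAR 2.7.8a and counted per gene with RSEM 1.3.1. The deposited tables hold expected counts and FPKM for each library, with the posterior standard deviation of each count. The ATAC-seq lists were made by the authors with the ENCODE pipeline, keeping peaks reproducible between 2 replicates. The deposited lists give a fold enrichment (ratio over local background), −log10 p-values and q-values, and a score for each summit; only positions and fold enrichment were used. Their build was not named with the lists, and 27.4% of chromosome 7 genes had a peak as placed, against 9.19% to 12.2% with positions shifted.

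Expected counts were rounded to whole numbers, genes whose counts reached 10 in total across the compared libraries were kept, scaled by TMM and tested with edgeR 4.0.16 (quasi-likelihood, R 4.3.3), each comparison on its own 4 libraries and each difference of effects on its own 8 libraries. The standard error is the log2 change divided by the square root of its F statistic. The test and its script were tested on simulated data. Gene symbols came from GENCODE M21, which matched 55144 of 55385 identifiers. Members, gene lists and searched words were chosen with earlier results of these data known. Named were the 5 members in every comparison, other Obox genes with a mean of at least 10 FPKM in a group, the paired-type homeobox genes with at least 1 FPKM, at most 4 called regulators per comparison, and 3 genes most alike to each member. Obox8, Obox7 and 3 Obox4-ps genes stand for the relatives in the text and were picked after their values were seen. Alternatives were DESeq2 1.42.0, other scalings, no filters, a fit of all 16 libraries, a replicate block, summed copies and each library left out. Replicates of every group differed by more than counting noise (chi-square per degree of freedom 9.99 to 22.2). Intervals cover counting error only. All columns of the RNA tables belonged to samples named in the labels. A gene of the paired-type list is not reported here, and the list was counted without it. Histone mark libraries of the series were not used here.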

Additional observations from a re-analysis of the deposited data

Results flagged for a closer look

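Obox3 was called in each of the tests of a difference between effects (edgeR's quasi-likelihood test, Benjamini-Hochberg adjustment over all genes), though its call against zygotes was not stable. The A-485 effect at early 2-cell minus that in zygotes was -5.36 ± 1.33 on the log2 scale (adjusted p = 0.0172), a value that rests on 5 counts in A-485 zygotes and 30 in DMSO zygotes. With so few reads, a fall as large as at early 2-cell could not have been seen in zygotes. The call was lost without replicate 2 of the A-485 zygotes (-1.32) or replicate 2 of the early 2-cell A-485 embryos. The A-485 effect at late 2-cell minus that at early 2-cell was 2.91 ± 0.41 for Obox3 (5.74e-06), 0.88 ± 0.29 for Obox6 (0.0353), -0.52 ± 0.12 for Obox5 (0.00202) and 1.30 ± 0.39 for Obox4-ps35 (0.0194). The early effect was measured at the end of the A-485 window and the late effect after it, while zygotes may have had a shorter exposure.

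The A-485 effect minus the TSA effect in late 2-cell embryos was -3.33 ± 0.22 for Obox3 (7.43e-09), -0.67 ± 0.16 for Obox5 (0.00492), -4.05 ± 0.28 for Obox4-ps35 (9.84e-09) and -2.43 ± 0.31 for Obox8 (1.76e-05), each lower after A-485. The drugs differ in target, dose and window, which cannot be told apart here, and no group had the 4 or more libraries that a test for an outlying library needs.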

How the results depend on the processing

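Of 842 alternative values for single members, 819 kept their side of the threshold, 11 lost a call, 8 gained one and 4 turned with a call involved. Values called in neither fit are among the 819 even where their sign changed. Obox1 in late 2-cell embryos after A-485, for example, ranged from -0.42 to 0.40 over the settings. The numbers of members called kept within 1.5 times in 175 of 185 alternatives. With copies summed, 2 members in place of 4 were called from DMSO zygotes to early 2-cell embryos and 1 in place of 3 with A-485, and the changes read for Obox2 became 0.16 and 0.39, because the sum also holds Obox1, Obox5 and Obox7. On the mitochondrial scale Obox5 turned to -0.22 (DMSO) and -0.23 (A-485), Duxbl1 to -1.09 and Alx1 to -0.026 in DMSO, and Sebox to -0.52 in A-485. That scale moved the median change of all genes by over 1 in both zygote to early 2-cell comparisons, from 2257 genes rising and 3002 falling to 1283 and 7938 in DMSO, and from 1360 and 3103 to 284 and 8880 in A-485. For late 2-cell A-485 the split went from 2406 and 3824 to 1517 and 5558, for A-485 late against early from 2915 and 1634 to 1920 and 3982 (3527 and 966 by total counts), and for TSA from 3237 and 3247 to 4108 and 2384 by total counts. Obox5 lost its DMSO rise under total counts (0.96) and in a fit of all 16 libraries (1.00, just below the size asked for). For the difference between late and early A-485 effects, 2 members in place of 1 were called by total counts (Obox6 at 1.01) and on the mitochondrial scale (Obox5 at -1.16), and for A-485 minus TSA 2 in place of 1 on the mitochondrial scale (Obox5 at -1.19); the corresponding splits of all genes went from 1911 and 1855 to 1106 and 3477, and from 718 and 2868 to 372 and 4300. Leaving out each library gave 0 to 1 members for early minus zygote (Obox3 lost its call without replicate 2 of the A-485 zygotes or of the early 2-cell A-485 embryos) and 1 to 2 for late minus early (Obox6 gained one without replicate 2 of the early 2-cell DMSO or replicate 1 of the early 2-cell A-485 embryos, at 1.02 and 1.25). With each library left out, Duxbl3 ranged from -4.18 (without TSA replicate 1) to 3.94 under TSA and from -1.09 to 6.96 (without TSA replicate 1) in A-485 minus TSA, and Duxbl2 from -2.77 to 2.54 (without TSA replicate 2) there and from -0.91 to 1.68 (without zygote DMSO replicate 1) between the first DMSO stages. Obox2 lost its fall from early to late A-485 embryos under total counts (-0.82), without early 2-cell A-485 replicate 1 (-0.84) and without late 2-cell A-485 replicate 1 (-0.77), and Obox6 its rise between the first stages of the A-485 embryos without early 2-cell A-485 replicate 1 (5.95). A window of 2500 bases gave 2 members with a peak in early 2-cell DMSO embryos in place of 0. The replicate block gave the same numbers of members called, 2, 2 and 2 for the A-485 early, A-485 late and TSA comparisons and 4 and 5 for the DMSO stages, for example; the numbers are not said to pair samples, and same-number deviations correlated at -0.04 to 0.09, except 0.585 for TSA with its DMSO libraries. Causes were not tested beyond what each alternative changes by construction. Depth limits Obox3 and Obox6 in zygotes, where libraries held 0 to 24 counts: counting intervals of the DMSO to A-485 ratio lay above 1 (Obox3 6.50, 2.50 to 21.5, and Obox6 14.1, 2.12 to 599), while the test across libraries called neither.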
